A study of Bos taurus with 6 samples.

Results

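The CCDC genes are the 129 genes in the deposited gene table whose symbol is CCDC followed by a number, out of 47249 genes in that table. The rule that picks them uses the name alone, although the name was settled on with earlier results of these data known. They were measured in the testes of Wandong cattle (Bos taurus), a native Chinese breed, in 3 immature calves aged 3 months and 3 andrologically mature bulls aged 3 years. The animals were healthy and untreated, and each library was made from the total RNA of slices of the testis of 1 animal after removal of ribosomal RNA. Since the RNA came from whole tissue, fewer cells of a type and less RNA per cell cannot be told apart, and this holds for every difference between calves and bulls given here.

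CCDC stands for coiled-coil domain containing. A coiled coil is formed when alpha helices wind around each other, and it gives a protein a stiff rod or a surface on which partners can dimerise. The name describes this shape and not a common ancestor or task, so the members include structural parts of the flagellum, adaptors of meiotic chromosomes, centriole proteins, splicing factors, endosome subunits and secreted proteins. In the adult testis, germ cells pass through meiosis and then build an axoneme, the microtubule core of the sperm tail, and many axoneme proteins were first named CCDC. A calf of this age has seminiferous cords with Sertoli cells and early germ cells and has not begun to make sperm.

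Levels are FPKM values of the authors (fragments divided by transcript length and by library size), which allow genes of different length to be compared. Changes are fitted differences of log2(FPKM + 1), bulls minus calves, with their standard error (SE), and this scale understates the change of a gene that is near 0 in a group. A gene was called higher or lower where the adjusted p of limma was below 0.05 and the log2 fold change was at least 1 in size, with Benjamini-Hochberg adjustment over all 18115 genes tested.

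The library labelled calf 3 stood apart from the other calves and went against its label. The summed level of 9 Sertoli cell markers was 1841 and 1558 FPKM in calf 1 and calf 2 and 444 FPKM in calf 3, where 8 of the 9 were lower and FSHR, WT1 and GATA4 were listed at 0. The 8 Leydig cell marker entries summed to 1406 and 1141 FPKM in calf 1 and calf 2 and to 0.501 FPKM in calf 3, with 4 of them at 0. The 6 oligodendrocyte markers summed to 13020 FPKM in calf 3 and to at most 29.4 FPKM in every other library, and the 6 neuron markers and 5 astrocyte markers were all higher in calf 3 than in calf 1 and calf 2. Counts, and the changes of the genes on which the results turn, are therefore given with and without calf 3, and a call held without calf 3 unless stated. Over the CCDC genes tested, the squared Pearson correlation of log2(FPKM + 1) was 0.958 between calf 1 and calf 2, 0.551 and 0.510 between calf 3 and these, and 0.951 to 0.960 among the bulls. Summed over all genes, the FPKM values ran from 587066 in calf 3 to 1098715 in calf 2, and small RNA families made up 68.3%, 67.3% and 49.1% of these sums in the calves and 45.2%, 44.7% and 41.8% in the bulls. This share was higher in every calf than in any bull. With libraries scaled to the sum of genes with a symbol, small RNA families left out, 71 CCDC genes were called higher and 6 lower. Of all 18115 genes tested, 5824 were then called higher and 2407 lower, with a median log2 fold change of 0.21. The part of the small RNA share in the changes of FPKM was not tested itself.

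More CCDC genes were at or above a given level in the bull libraries than in the calf libraries. In calf 1, calf 2 and calf 3, 79, 83 and 88 members were at 1 FPKM or more, against 120, 120 and 121 in bull 1, bull 2 and bull 3. Over all genes these counts were 14325, 14569 and 14992 in the calves and 17860, 18480 and 18982 in the bulls. The groups thus did not overlap in the count over all genes either. At 10 FPKM or more there were 18, 22 and 19 members in the calves and 74, 77 and 75 in the bulls. The median level over the 129 members was 2.13, 2.24 and 2.71 FPKM in the calves and 12.8, 14.0 and 13.3 FPKM in the bulls. For the CCDC genes the groups did not overlap in any of these 3 measures. The exact two-sided permutation test over the 6 libraries gave p = 0.1 for each, the smallest value that 20 labelings allow. The counts at 10 FPKM and the median are not given here over all genes.

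Of the 129 members, 124 were at 1 FPKM or more in 3 or more libraries and were tested. Among these, 75 were called higher in bulls, 5 were called lower and 44 were not called. At an unadjusted p below 0.05 with no fold threshold, limma gave 77 higher and 12 lower. Of all 18115 genes tested, 7822 were higher and 3223 lower at that unadjusted p. Over all genes tested, 35.7% were called higher and 9.61% lower, against 60.5% and 4.03% of the CCDC genes tested. The groups did not overlap for 96 CCDC genes, 82 higher and 14 lower in bulls, or 77.4% against 67.4% of all genes tested. The median log2 fold change was 1.81 for the CCDC genes and 0.43 for all genes tested. The filter itself favours such a count, because 27 of the 124 were below 1 FPKM in every calf and passed only through the bulls, and all 27 of these were called higher. With no filter, 128 members could be fitted, and 73 were called higher and 4 lower (57% and 3.12%), against 15.6% and 3.54% of all 44657 genes then fitted. Without calf 3, 77 members were called higher and 5 lower, when 37.9% and 13.6% of all genes tested were called in these directions, and 72 of the higher and 4 of the lower calls were shared with the fit of all libraries. Quantile normalization moved the median log2 fold change of all genes from 0.43 to -0.13 and gave 66 higher and 12 lower CCDC genes (53.2% and 9.68%), against 25.9% higher and 21.6% lower of all genes tested.

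The 5 members that were not tested stayed low or were high in few libraries. CCDC159 was listed at 0 in all 6 libraries, and CCDC198 was at most 0.159 FPKM in any of them. CCDC177 was 0.118, 0.0954 and 1.03 FPKM in the calves and 0.249 to 0.533 FPKM in the bulls. CCDC9B and CCDC102B are given with their relatives.

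The 75 members called higher differed widely in size of change. The log2 fold change was at least 4 in 22 of them, between 2 and 4 in 29 and between 1 and 2 in 24. The plot of the fold changes by role shows how the role lists differed in their medians. All 15, 10 and 2 members of the axoneme, sperm formation and meiosis lists were called higher, when 35.7% of all genes tested were. In each of these lists, some members passed the filter only through their bull levels. The lists of centriole, RNA, mitochondrial, trafficking and signalling proteins each held members that rose and members that were not called.

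**Figure D1:**
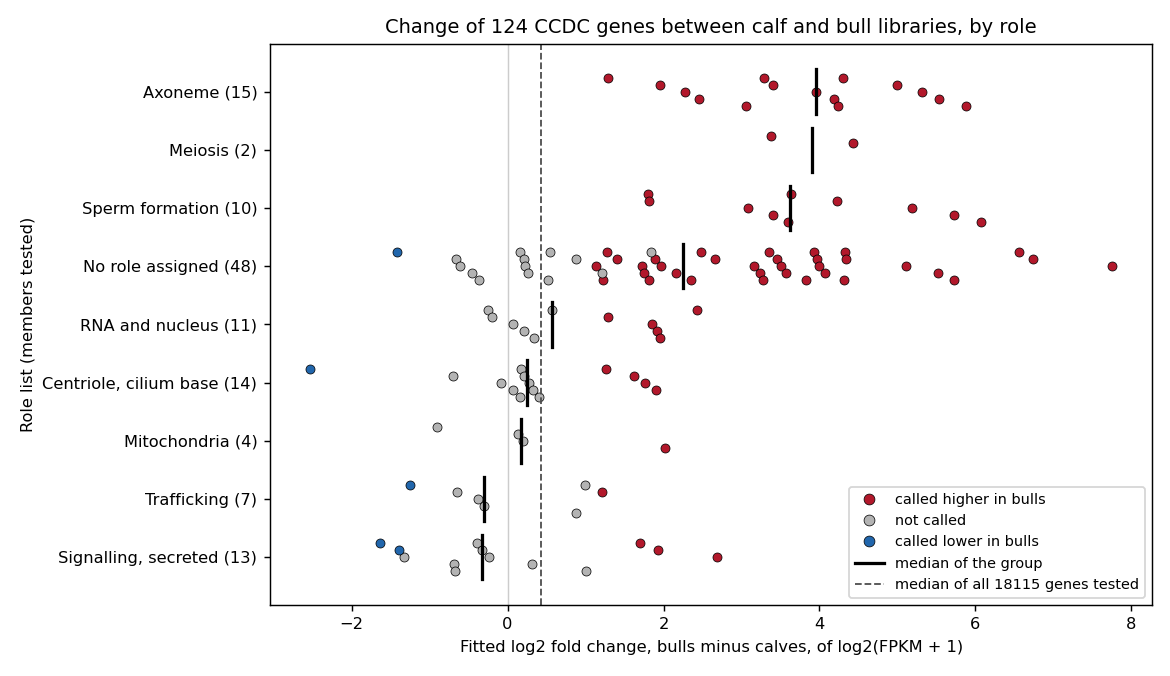
Fitted log2 fold change, bulls minus calves, of the 124 CCDC genes tested (horizontal axis), grouped by role list (vertical axis, with the number of members tested). Each point is 1 gene, coloured by its call, and black bars are the medians of the lists. The axoneme, meiosis and sperm formation lists have medians of 3.96, 3.91 and 3.62, while the trafficking and signalling lists have medians of -0.31 and -0.33 and the dashed line marks the median of 0.43 over all genes tested.

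The axoneme list held 15 members, and all 15 rose in bulls, with and without calf 3, when 35.7% and 37.9% of all genes tested were called higher. Of the 15, 6 were below 1 FPKM in every calf and so were tested only through their bull levels. Their log2 fold changes ran from 1.29 to 5.88, and the median of their mean levels was 0.890 FPKM in calves and 28.3 FPKM in bulls. The 2 ruler proteins CCDC39 and CCDC40 set the repeat along the outer doublets on which dynein arms and radial spokes are mounted. CCDC39 was 0.759, 0.875 and 0.499 FPKM in the calves and 31.7, 30.9 and 27.3 FPKM in the bulls. CCDC40 was 1.03, 1.68 and 0.472 FPKM in the calves and 38.7, 36.6 and 40.3 FPKM in the bulls. CCDC40 was above CCDC39 in each bull, and the log2 fold changes were 4.18 ± 0.17 (SE, adjusted p = 1.31e-05) for CCDC39 and 4.30 ± 0.25 (adjusted p = 4.30e-05) for CCDC40, or 4.09 and 4.08 without calf 3.

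The docking complex that fixes outer dynein arms to the doublets contains CCDC114 and CCDC151, and CCDC63 is a relative of CCDC114 that takes this part in sperm. CCDC63 was 0.258, 0.432 and 0 FPKM in the calves and 44.7, 60.6 and 62.7 FPKM in the bulls, a log2 fold change of 5.53 ± 0.23 (SE, adjusted p = 1.26e-05, 5.39 without calf 3). CCDC114 was 0.580, 0.622 and 0.269 FPKM in the calves and 14.4, 16.2 and 13.6 FPKM in the bulls, a log2 fold change of 3.41. CCDC63 was thus above CCDC114 in each bull library and below it in each calf library. CCDC151 was 0.893, 1.33 and 0.448 FPKM in the calves and 35.7, 23.2 and 26.0 FPKM in the bulls (log2 fold change 3.96). The 3 other docking genes in the table, EFCAB1, TTC25 and ARMC4, were all called higher, with log2 fold changes of 3.90, 3.96 and 2.99. EFCAB1 and TTC25 were below 1 FPKM in every calf and so were tested only through their bull levels. For comparison, 35.7% of all genes tested were called higher. CCDC103, an assembly factor that binds dynein arms, was lower in level, at 0.185, 0.383 and 0.260 FPKM in the calves and 6.04, 6.73 and 5.34 FPKM in the bulls.

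The nexin-dynein regulatory complex links neighbouring doublets and limits their sliding. CCDC65 is one of its central subunits and CCDC153 a smaller one. CCDC65 was 0.941, 1.97 and 1.07 FPKM in the calves and 75.8, 71.6 and 68.2 FPKM in the bulls, with a log2 fold change of 4.99 ± 0.21 (SE, adjusted p = 1.33e-05, 4.92 without calf 3). CCDC153 was 0.864, 0.573 and 3.12 FPKM in the calves and 4.14, 4.04 and 5.86 FPKM in the bulls. Its log2 fold change of 1.29 ± 0.40 (adjusted p = 0.0332) was the smallest of the list and became 1.72 without calf 3. The call of CCDC153 was lost when any other library was left out, at adjusted p of 0.0775 to 0.109, under quantile normalization (0.77), with libraries scaled to genes with a symbol (1.09, adjusted p = 0.0825) and with no filter, so that 14 of the 15 were called in those cases. The 8 other genes of this complex in the table were all called higher, from 1.17 for IQCA1 to 4.78 for DRC1, when 35.7% of all genes tested were. Among the 8, DRC3 and FBXL13 were below 1 FPKM in every calf and so were tested only through their bull levels.

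CCDC113 and CCDC96 form a complex beside the regulatory complex, and CCDC113 had the highest mean level in the axoneme list. CCDC113 (chr18:26085843-26119863) was 0.473, 0.997 and 0.0392 FPKM in the calves and 80.2, 94.0 and 79.9 FPKM in the bulls, a log2 fold change of 5.88 ± 0.27 (SE, adjusted p = 1.77e-05, 5.64 without calf 3). CCDC96 was 0.315, 0.423 and 1.26 FPKM in the calves and 14.9, 14.0 and 15.5 FPKM in the bulls, so the 2 partners differed in level in every bull. CCDC105 and CCDC173 are proteins of the inside of the doublet microtubules. CCDC105 was at most 0.116 FPKM in any calf and 42.5, 36.7 and 46.3 FPKM in the bulls (log2 fold change 5.32). CCDC173 was 1.71, 3.35 and 0.903 FPKM in the calves and 21.1, 24.3 and 22.4 FPKM in the bulls (log2 fold change 3.06). CCDC189, a protein of the central apparatus, reached 7.42 to 8.0 FPKM in bulls, and CCDC181, which binds microtubules of the sperm tail, reached 39.9 to 44.0 FPKM.

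Summed markers of several cell types moved in the same direction as the axoneme list, and those of Sertoli cells moved the other way. The 8 spermatid markers summed to 1.56 to 3.38 FPKM in the calves and to 13570 to 15500 FPKM in the bulls. The 7 spermatocyte markers summed to 18.0, 23.5 and 2.94 FPKM in the calves and to 303.5 to 367.8 FPKM in the bulls. The 7 markers of spermatogonia summed to 99.9, 108 and 233.5 FPKM in the calves and to 275.4 to 283 FPKM in the bulls. The 8 Leydig cell entries summed to 1406, 1141 and 0.501 FPKM in the calves and to 1465 to 2738 FPKM in the bulls. The 9 Sertoli cell markers summed to 444 to 1841 FPKM in the calves and to 267.9 to 296.2 FPKM in the bulls. The 6 markers of multiciliated cells summed to 0.372 to 2.81 FPKM in the calves and to 19.4 to 30.8 FPKM in the bulls. FOXJ1 among them was 8.57 to 11.3 FPKM in bulls, whereas CCNO and MCIDAS, which define multiciliated cells, were at most 0.0516 FPKM in any bull. The part of these cell types in the levels of the CCDC genes was not tested.

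The sperm formation list held 10 members, and all 10 rose in bulls, with and without calf 3, by log2 fold changes of 1.81 to 6.07. Over all genes tested, 35.7% were called higher with all libraries and 37.9% without calf 3. Of the 10 members, 4 were below 1 FPKM in every calf and so were tested only through their bull levels. The median of their mean levels was 0.655 FPKM in calves and 26.0 FPKM in bulls. CCDC136, a protein of acrosome formation, was the second highest CCDC gene in bulls, at 156, 145 and 169 FPKM. In the calves CCDC136 was 0.481, 0.976 and 7.97 FPKM, so that calf 3 was above the other calves and all calves were far below the bulls. The log2 fold change of CCDC136 (chr4:92763272-92792188) was 5.73 ± 0.67 (SE, adjusted p = 0.000686) with all libraries and 6.52 (adjusted p = 8.60e-07) without calf 3. CCDC89 (chr29:9868599-9875233) was 0.245, 0.582 and 1.06 FPKM in the calves and 107, 95.3 and 117 FPKM in the bulls, a log2 fold change of 6.07 ± 0.23 (adjusted p = 9.63e-06, 6.25 without calf 3).

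CCDC62, an acrosomal protein that also binds oestrogen receptors, was 0.488, 0.469 and 0.942 FPKM in the calves and 63.0, 55.9 and 55.0 FPKM in the bulls. CCDC42 and CCDC38 are needed for the manchette and the sperm tail, and CCDC188 for the joint of head and tail. These 3 genes were at most 1.28 FPKM in any calf, and their bull levels were 25.8 to 27.0, 18.8 to 19.6 and 12.1 to 13.3 FPKM. CCDC34, a centrosomal protein needed for the sperm tail, was already present in calves. It was 7.36, 9.24 and 2.18 FPKM in the calves and 52.6, 56.6 and 52.4 FPKM in the bulls, a log2 fold change of 3.08 that became 2.57 without calf 3. CCDC87 and CCDC172 rose by 3.63 and 1.81 on the log2 scale.

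Both members of the meiosis list rose, and 1 of them, CCDC36, was below 1 FPKM in every calf. CCDC36, also known as IHO1, binds HORMAD1 on the chromosome axis and is needed for the breaks that start recombination. CCDC36 (chr22:50812881-50840894) was 0.357, 0.725 and 0.108 FPKM in the calves and 25.8, 30.4 and 30.3 FPKM in the bulls, a log2 fold change of 4.44 ± 0.22 (SE, adjusted p = 2.47e-05, 4.28 without calf 3). CCDC155, also known as KASH5, spans the outer nuclear membrane and couples telomeres to dynein. CCDC155 (chr18:55855244-55879473) was 3.52, 4.65 and 0.180 FPKM in the calves and 31.7, 30.3 and 32.4 FPKM in the bulls. Its level in calf 3 was low like that of the spermatocyte markers there, and its log2 fold change was 3.38 ± 0.59 (adjusted p = 0.00378) with calf 3 and 2.68 (adjusted p = 1.21e-05) without it. Of 9 partner genes tested, 7 were called higher and none lower with all libraries and without calf 3. Among them were TERB2 (5.23), HORMAD1 (4.48), SPDYA (4.04) and SUN1 (1.14). The share of 77.8% higher stands beside 35.7% of all genes tested, or 37.9% without calf 3. TERB2 was at most 0.521 FPKM in any calf and, like CCDC36, was tested only through its bull levels. TERF1 (-0.40) and MEI4 (0.13) were not called.

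The largest changes of all CCDC genes were in members for which no role had been assigned. CCDC70 (chr12:21303460-21309643) was 0.0469, 0.166 and 0 FPKM in the calves and 183, 274 and 243 FPKM in the bulls. It was the highest CCDC gene in every bull, and its log2 fold change of 7.76 ± 0.20 (SE, adjusted p = 3.41e-06, 7.71 without calf 3) was the largest of the 124. CCDC110 (chr27:15691806-15705526) was 0.0960, 0.107 and 0.284 FPKM in the calves and 116, 137 and 116 FPKM in the bulls (log2 fold change 6.74 ± 0.16, adjusted p = 3.14e-06, 6.81 without calf 3). CCDC54 (chr1:51940367-51941954) was 0.112, 0 and 0.0497 FPKM in the calves and 78.7, 96.5 and 126 FPKM in the bulls (log2 fold change 6.56 ± 0.21, adjusted p = 6.03e-06, 6.56 without calf 3). None of these 3 genes was above 0.284 FPKM in any calf, and the lowest value in any bull was 78.7 FPKM.

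CCDC83 (log2 fold change 5.73, 5.92 without calf 3) and CCDC185 (5.52, 5.50 without calf 3) complete the 10 largest rises. CCDC83 was 0.176, 0.712 and 1.11 FPKM in the calves and 78.9, 82.1 and 95.0 FPKM in the bulls. CCDC185 was at most 0.0626 FPKM in the calves and 47.1, 43.3 and 49.0 FPKM in the bulls. Other members without a role that were near 0 in calves were CCDC196 at 26.7 to 53.2 FPKM in bulls, CCDC182 at 14.2 to 14.7 FPKM, CCDC192 at 11.8 to 15.8 FPKM and CCDC154 at 9.25 to 11.1 FPKM. CCDC27 was listed at 0 in all 3 calves and was 1.06, 1.23 and 2.06 FPKM in the bulls. In all, of the 48 members without a role that were tested, 34 were called higher and 1 lower (70.8% and 2.08%). Over all genes tested these shares were 35.7% and 9.61%. Without calf 3, 35 were called higher and 1 lower (72.9% and 2.08%), against 37.9% and 13.6% of all genes tested. Of the 48, 16 were below 1 FPKM in every calf and so were tested only through their bull levels.

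**Figure D2:**
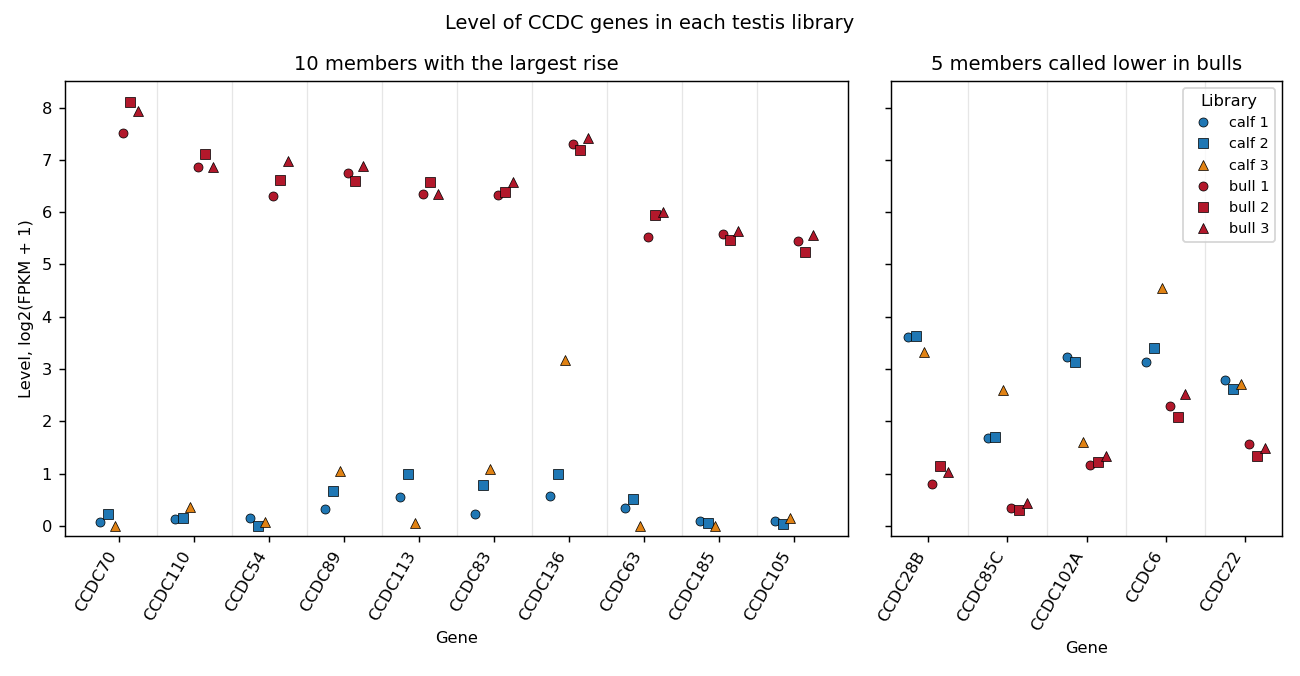
Level of the 10 CCDC genes with the largest rise (left) and of the 5 called lower in bulls (right), as log2(FPKM + 1) on the vertical axis, with 1 symbol per library. Blue symbols are calf 1 and calf 2, orange triangles calf 3 and red symbols the bulls. In each of the 15 genes the bulls and calves do not overlap, and calf 3 lies apart from the other calves upward for CCDC136, CCDC85C and CCDC6 and downward for CCDC102A.

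Only 5 CCDC genes were called lower in bulls with all libraries. CCDC28B, which acts with proteins of the cilium base and influences cilium length, had the largest fall. CCDC28B (chr2:121319922-121324082) was 11.2, 11.4 and 9.03 FPKM in the calves and 0.745, 1.20 and 1.04 FPKM in the bulls, a log2 fold change of -2.53 ± 0.19 (SE, adjusted p = 0.000105, -2.63 without calf 3). CCDC22 (chrX:87274462-87289622), a subunit of the Commander complex that returns membrane proteins from endosomes to the cell surface, was 5.92, 5.16 and 5.56 FPKM in the calves and 1.96, 1.53 and 1.81 FPKM in the bulls. For both genes calf 3 lay with the other calves, and CCDC22 had a log2 fold change of -1.24 ± 0.16 (adjusted p = 0.00103, -1.24 without calf 3).

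For the other 3 lower genes calf 3 lay apart from the other calves. CCDC85C, a protein of apical cell junctions, was 2.20, 2.24 and 5.08 FPKM in the calves and 0.271, 0.226 and 0.345 FPKM in the bulls (log2 fold change -1.64 ± 0.27 SE, adjusted p = 0.00307, -1.33 without calf 3). CCDC102A was 8.42, 7.77 and 2.05 FPKM in the calves and 1.24, 1.34 and 1.51 FPKM in the bulls (log2 fold change -1.42 ± 0.46 SE, adjusted p = 0.0390). Without calf 3 the change of CCDC102A was -1.94 (adjusted p = 5.52e-05), whereas its call was lost without any 1 of the other 5 libraries, at adjusted p of 0.0995 to 0.115, and with no filter. CCDC6, a tumour suppressor known from its fusions with RET, was 7.74, 9.51 and 22.3 FPKM in the calves and 3.91, 3.26 and 4.72 FPKM in the bulls. Its log2 fold change of -1.39 ± 0.40 SE (adjusted p = 0.0258) fell short of the threshold of 1 without calf 3, at -0.96, and without any 1 of the bulls it lost its call at adjusted p of 0.0616 to 0.091. The number of lower calls among the CCDC genes was thus 3 without bull 1, without bull 2 or without bull 3. Of all 18115 genes tested, 1218, 1289 and 1299 were then called lower.

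Of 14 centriole and cilium base members tested, 4 rose, 1 fell (CCDC28B) and 9 were not called. These shares of 28.6% higher and 7.14% lower lie near the 35.7% and 9.61% of all genes tested, and the median log2 fold change was 0.25. CCDC92 was 6.57, 11.1 and 20.3 FPKM in the calves and 53.4, 43.7 and 41.0 FPKM in the bulls, a log2 fold change of 1.90 ± 0.39 (SE, adjusted p = 0.00688, 2.29 without calf 3). CCDC77 rose by 1.62, and CCDC13, a protein of centriolar satellites, by 1.77. CCDC13 was 0.0296 and 0.0201 FPKM in calf 1 and calf 2 but 1.69 FPKM in calf 3, and 3.64 to 3.98 FPKM in the bulls. CCDC15, a protein of the inner centriole, was 7.05, 7.35 and 3.50 FPKM in the calves and 12.6, 18.7 and 14.5 FPKM in the bulls. Its log2 fold change of 1.26 (adjusted p = 0.0136) was 0.97 without calf 3 and 1.11 (adjusted p = 0.0573) without bull 2, which ended its call in both cases, as did quantile normalization (0.76). Without calf 3 the list held 3 higher genes and 1 lower gene (21.4% and 7.14%), beside 37.9% and 13.6% of all genes tested.

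The RNA and nucleus list was divided, with 5 of 11 members higher, none lower and a median of 0.57, and with the same counts without calf 3. The share of 45.5% higher stands beside 35.7% of all genes tested, or 37.9% without calf 3. The share of none lower stands beside 9.61%, or 13.6% without calf 3. CCDC59, which takes part in the processing of ribosomal RNA precursors, was even among the calves at 13.4, 13.3 and 13.5 FPKM and was 80.7, 77 and 70.9 FPKM in the bulls. Its log2 fold change was 2.42 ± 0.13 (SE, adjusted p = 3.37e-05, 2.43 without calf 3). CCDC124, which binds ribosomes, was 19.9, 23.8 and 19.0 FPKM in the calves and 50.9, 51.8 and 54.9 FPKM in the bulls, a log2 fold change of 1.29 that was 0.55 and not called under quantile normalization. CCDC106 and the splicing protein CCDC130 rose by 1.96 and 1.86, and the nucleolar protein CCDC86 by 1.91. The 6 members that were not called had log2 fold changes of -0.25 to 0.57.

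In the mitochondrial list, 1 of 4 members rose and none fell, with and without calf 3. All genes tested were called higher in 35.7% and lower in 9.61% of cases, or in 37.9% and 13.6% without calf 3. CCDC90B, a relative of a regulator of the calcium uniporter, was 7.15, 5.41 and 5.86 FPKM in the calves and 29.4, 30.3 and 23.9 FPKM in the bulls (log2 fold change 2.01 ± 0.18 SE, adjusted p = 0.000205, 1.99 without calf 3). CCDC51, a subunit of a potassium channel of the inner membrane, was 5.12 to 6.74 FPKM in the calves and 2.36 to 2.99 FPKM in the bulls. Its groups did not overlap, and its log2 fold change of -0.91 (adjusted p = 0.00672) was under the fold threshold.

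The 7 trafficking members had a median of -0.31, with 1 higher (CCDC91) and 1 lower (CCDC22), and with CCDC115 as a second higher gene without calf 3. These shares of 14.3% in each direction stand beside 35.7% higher and 9.61% lower of all genes tested. Without calf 3 they were 28.6% and 14.3%, beside 37.9% and 13.6%. CCDC93, the partner of CCDC22 in Commander, was 10.5, 10.2 and 17.4 FPKM in the calves and 9.47, 7.55 and 5.88 FPKM in the bulls (log2 fold change -0.65, adjusted p = 0.0922). Of the 13 other Commander genes tested, none was called in either direction with all libraries. At an unadjusted p below 0.05, limma gave 5 of them lower and 1 higher, beside 3223 lower and 7822 higher of all 18115 genes tested. An adjusted p below 0.05 under the fold threshold was found for 4 of the 13, beside 1948 of all genes tested. The log2 fold changes of these Commander genes ran from -0.95 for COMMD2 to 0.63 for COMMD3. Without calf 3, 1 of these genes, COMMD8, was called lower (-1.08). CCDC47, a chaperone subunit of the endoplasmic reticulum and 1 of the 5 highest CCDC genes in calves, was 23.7, 28.3 and 56.1 FPKM in the calves and 25, 29.0 and 27.2 FPKM in the bulls. The log2 fold change of CCDC47 was -0.31 with calf 3 and 0.06 without it, and neither was called.

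Of 13 signalling and secreted members, 3 rose and 2 fell, with a median of -0.33, and 4 rose and 2 fell without calf 3. These shares of 23.1% higher and 15.4% lower stand beside 35.7% and 9.61% of all genes tested. Without calf 3 they were 30.8% and 15.4%, beside 37.9% and 13.6%. CCDC88A, or girdin, an actin-binding protein that also activates G proteins, was 14.1, 13.9 and 45.0 FPKM in the calves and 67.1, 74.0 and 69.4 FPKM in the bulls. Its log2 fold change was 1.70 ± 0.46 (SE, adjusted p = 0.0211) with all libraries and 2.24 (adjusted p = 6.51e-06) without calf 3, and with calf 3 kept its call was lost without any 1 of the other 5 libraries (adjusted p 0.0617 to 0.0731), under quantile normalization (0.97) and with libraries scaled to genes with a symbol (1.44, adjusted p = 0.0568). CCDC25 was 20.7 to 23.8 FPKM in calves, among the 5 highest CCDC genes there with calf 3 but at rank 8 without it. It was 23.9 to 33.5 FPKM in bulls and was not called (log2 fold change 0.31). CCDC50 and CCDC141 were lower in every bull than in any calf but by less than the threshold, with log2 fold changes of -0.39 and -0.69.

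The library labelled calf 3 decided the call of 10 members. CCDC8, a protein of the 3-M complex of the cytoskeleton, was the highest CCDC gene in calf 1 and calf 2 at 59.3 and 51.1 FPKM and was 1.35 FPKM in calf 3. Bulls lay between these values, at 11.8, 12 and 9.95 FPKM. With all libraries the log2 fold change of CCDC8 (chr18:53689830-53695404) was -0.68 ± 1.26 (SE, adjusted p = 0.673). Without calf 3 it was -2.20 (adjusted p = 2.44e-05), and CCDC8 was then among the 5 members called lower. The change was 0.14 without calf 1 and 0.03 without calf 2, so its sign rested on which calf was left out.

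CCDC184, CCDC115, CCDC190 and CCDC85A were high in calf 3 and gained a higher call without it. CCDC184 was 0.162, 0.261 and 7.41 FPKM in the calves and 6.92, 6.70 and 8.17 FPKM in the bulls, with a log2 fold change of 1.83 (adjusted p = 0.0922) that became 2.77 (adjusted p = 1.78e-05). CCDC115, an assembly factor of the proton pump of acidic organelles, was 4.32, 8.49 and 34.7 FPKM in the calves and 21.1, 24.9 and 24.0 FPKM in the bulls. Its change was 1.0 (adjusted p = 0.258) with calf 3 and 1.77 (adjusted p = 0.000920) without it. CCDC190 was 0.275, 0.0777 and 3.76 FPKM in the calves and 6.02, 1.02 and 4.67 FPKM in the bulls, and its change went from 1.21 to 1.88. CCDC85A went from 1.0 (adjusted p = 0.118) to 1.49 (adjusted p = 0.00236), and CCDC148 from 0.88 to 1.1.

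CCDC15, CCDC126, CCDC138 and CCDC6 lost their calls without calf 3, each because the change then fell below 1 in size. CCDC126 went from 1.13 to 0.78 and CCDC138 from 1.22 to 0.95, and both also lost their calls under quantile normalization. In calf 3, CCDC3 (24.5 FPKM, against 2.44 and 1.85 FPKM in calf 1 and calf 2) had the largest excess over the other calves on the log2 scale. CCDC3 encodes a secreted protein and was 1.18 to 1.97 FPKM in bulls, and it was not called in either fit (-1.32 and -0.32). CCDC69, which binds microtubules of the central spindle, was 12.1, 45.9 and 0.424 FPKM in the calves and 7.71, 11.5 and 13.3 FPKM in the bulls. Its change was 0.28 with calf 3 and -1.1 without it, and neither was called. CCDC107 was 19.3, 23.5 and 5.35 FPKM in the calves and 14.2, 16.6 and 15.5 FPKM in the bulls (0.16 and -0.44, not called). Over the 124 genes tested, calf 3 was the highest calf for 55 and the lowest for 56, and on the log2(FPKM + 1) scale it was at least 4-fold above the mean of the other calves for 5 and at least 4-fold below it for 3.

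**Figure D3:**
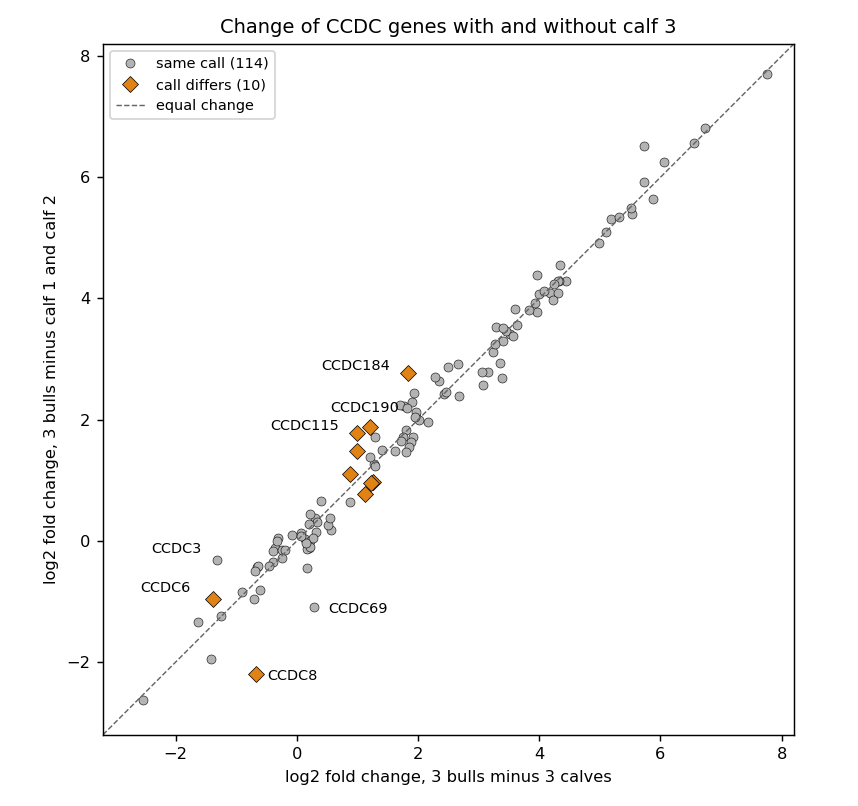
Log2 fold change of the 124 CCDC genes tested, from all libraries (horizontal axis) and without calf 3 (vertical axis), both on the log2(FPKM + 1) scale. Each point is 1 gene, grey where the call was the same in both fits (114 genes) and orange where it differed (10 genes), and the dashed line marks an equal change. CCDC8 lies far below the line, at -0.68 and -2.20, and CCDC136 lies above it, at 5.73 and 6.52.

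Members that share a number and differ by a letter did not move alike. CCDC28A rose from 6.51, 6.12 and 6.56 FPKM in the calves to 25.5, 19.0 and 31.9 FPKM in the bulls (log2 fold change 1.81 ± 0.22 SE, adjusted p = 0.000726, 1.83 without calf 3), whereas CCDC28B fell by 2.53 on the same scale. CCDC88A and CCDC88B rose, the latter from 1.82, 1.6 and 0.489 FPKM in the calves to 12.3, 17.4 and 10.8 FPKM in the bulls (log2 fold change 2.68, 2.40 without calf 3). CCDC88C was 2.33 to 3.37 FPKM in calves and 1.97 to 2.58 FPKM in bulls and was not called (-0.24). CCDC85A was called higher without calf 3 and not called with all libraries, whereas CCDC85C was called lower with and without it. CCDC9 was 4.32 to 10.3 FPKM in the calves and 8.14 to 9.02 FPKM in the bulls (0.20, or -0.11 without calf 3, not called), and CCDC9B was highest in calf 3 at 4.48 FPKM and at most 0.818 FPKM elsewhere. CCDC102B was 7.76, 5.64 and 0.0491 FPKM in the calves and 0.480 to 0.732 FPKM in the bulls, and like CCDC102A it was lowest among the calves in calf 3, though it was not tested. CCDC71 was 7.06, 7.75 and 3.95 FPKM in the calves and 8.15 to 11.0 FPKM in the bulls, CCDC71L was 1.61 to 3.78 and 2.94 to 3.20 FPKM, and neither was called. The differences between relatives were not tested themselves.

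The order of levels among CCDC genes was not kept between the groups. In bulls the 5 highest were CCDC70 (233 ± 46.3 FPKM, SD, n = 3), CCDC136 (157 ± 12.1), CCDC110 (123 ± 12.4), CCDC89 (106 ± 10.9) and CCDC54 (100.3 ± 23.7). The bull values of CCDC110, CCDC89 and CCDC54 overlapped, while those of CCDC70, CCDC136 and these 3 did not. All 5 were at most 7.97 FPKM in every calf. In calves the 5 highest by the mean of all 3 were CCDC8, CCDC47, CCDC88A, CCDC25 and CCDC124, of which CCDC8, CCDC47 and CCDC88A ranged more than 2-fold among the calves. By the mean of calf 1 and calf 2 the 5 highest were CCDC8, CCDC69, CCDC47, CCDC124 and CCDC107. In that order CCDC25 was at rank 8 and CCDC88A at rank 13. Between a calf and a bull library, the squared correlation over the CCDC genes tested was at most 0.00505, against 0.145 to 0.284 over all genes tested. Over the 121 members with a bull mean of at least 1 FPKM, the median ratio of the highest to the lowest bull was 1.23, and it was at least 2 in 4 members. CCDC197 had the widest spread, at 3.00, 18.6 and 12.4 FPKM, followed by CCDC190.

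The table of transcripts held 520 entries of CCDC genes, of which 191 were tested. With all libraries 121 entries were called higher and 6 lower, and without calf 3 these were 121 and 8. Over all transcripts tested, 34.8% were called higher and 9.37% lower with all libraries, and 36.1% and 13.1% without calf 3. The level of a gene is the sum of its entries, and how a level is divided among overlapping entries is an estimate that can shift between libraries. In CCDC146, for example, the entry CCDC146-201 took 11.2 and 11.1 FPKM in bull 1 and bull 2 and 0.947 FPKM in bull 3, where CCDC146-202 took 9.10 FPKM.

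Several genes that rose did so in an entry that was assembled from the reads and is not an Ensembl transcript. Of the 121 members with a bull mean of at least 1 FPKM, 26 had such an entry as their main one in bulls. For CCDC136, the assembled entry TCONS_00279897 made up 99.0% of the bull level, at 155, 143 and 168 FPKM. In calf 3 this entry was 0.0144 FPKM, and the level there lay in CCDC136-201 (2.21 FPKM), CCDC136-202 (1.82 FPKM) and TCONS_00279894 (2.38 FPKM). The 2 Ensembl entries were listed at 0 in every bull, so calf 3 and the bulls differed in entry as well as in level. For CCDC110 the assembled entry TCONS_00239709 made up 99.4% of the bull level, and for CCDC88B TCONS_00251451 made up 92.1%. For CCDC86 the assembled entry TCONS_00250917 was listed at 0 in every calf and was 13.2, 9.25 and 12.9 FPKM in the bulls, whereas CCDC86-201 was 3.32 to 6.71 FPKM in calves and 5.12 to 9.11 FPKM in bulls and was not called.

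CCDC91, which binds adaptors of vesicles that leave the Golgi, was the only member with entries called in both directions, with and without calf 3. CCDC91-201 was 5.21, 5.73 and 7.05 FPKM in the calves and 0.716, 1.02 and 1.37 FPKM in the bulls, a log2 fold change of -1.79 (adjusted p = 0.000864). TCONS_00306072 was at most 0.208 FPKM in the calves and 3.90, 8.67 and 3.93 FPKM in the bulls (log2 fold change 2.51, adjusted p = 0.000889). TCONS_00306064 was listed at 0 in every calf and was 12.3, 3.26 and 16.4 FPKM in the bulls. The gene as a whole was called higher (1.21 ± 0.19 SE, adjusted p = 0.00253, 1.38 without calf 3), a call that was lost under quantile normalization (0.60) and with libraries scaled to genes with a symbol (0.95).

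The main entry of CCDC88A differed between the calves. CCDC88A-203 made up 60.5% of its level in calf 1 and calf 2, whereas CCDC88A-201 made up 88.5% in calf 3 and 79.4% in the bulls. CCDC115 in calf 3 was 92.9% CCDC115-201, at 32.3 FPKM, and this entry was 0.341 to 0.704 FPKM in every other library. In bulls the level of CCDC115 lay in TCONS_00163157 (14.4 to 15.4 FPKM) and TCONS_00163155 (6.29 to 9.19 FPKM), and the gene overlaps IMP4 and PTPN18. The levels of CCDC115 in calf 3 and in bulls thus lay in different entries.

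**Figure D4:**
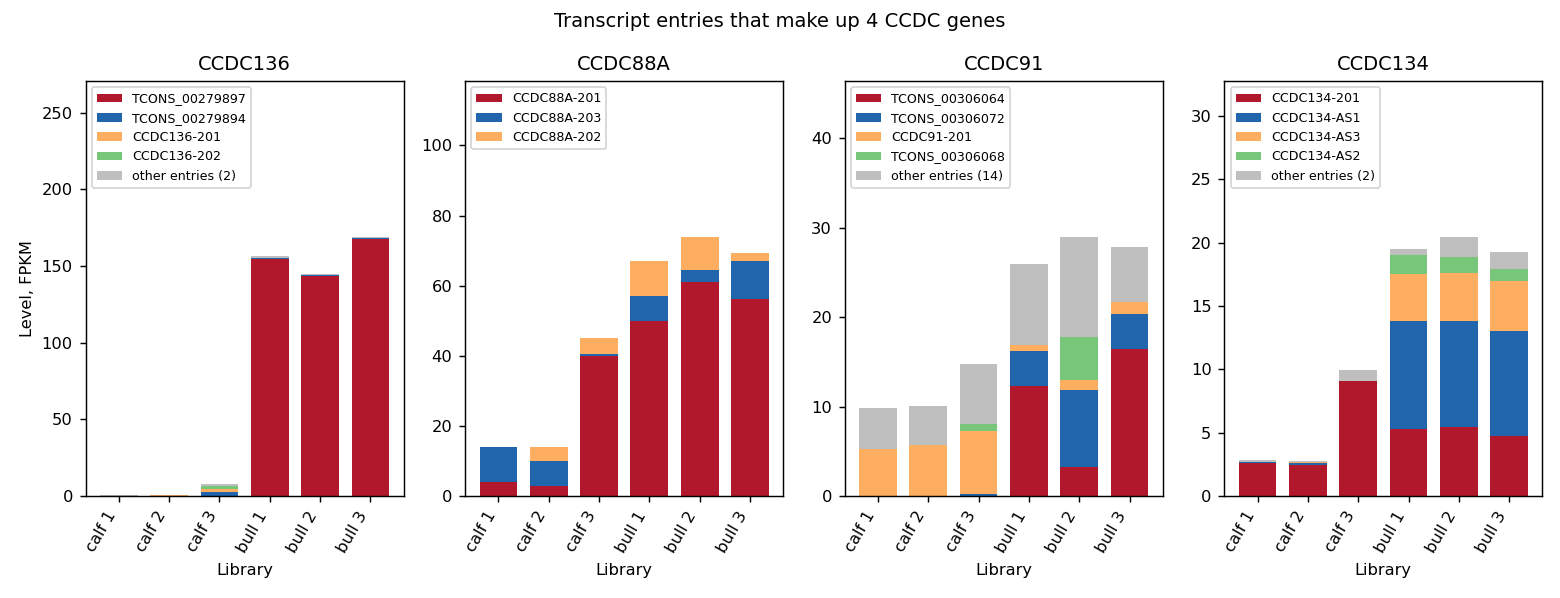
Level in FPKM (vertical axis) of the transcript entries that make up CCDC136, CCDC88A, CCDC91 and CCDC134 in each of the 6 libraries (horizontal axis), stacked so that a bar's height is the level of the gene. Entries beginning with TCONS were assembled by the authors, and names ending in AS and a number mark antisense entries. The bars of CCDC136 in bulls are almost wholly TCONS_00279897, and those of CCDC134 in bulls are mostly antisense entries while CCDC134-201 stays at 4.74 to 5.48 FPKM.

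Some of the summed entries were named as antisense to the gene. There were 31 such entries in 20 CCDC genes. The libraries kept the strand of the RNA according to the methods, whereas the tables give no strand and do not say how it entered the levels. In CCDC134, which encodes a secreted protein, antisense entries made up 71.9% of the bull level. CCDC134-AS1 was 0.0366 to 0.122 FPKM in the calves and 8.54, 8.36 and 8.29 FPKM in the bulls. The sense entry CCDC134-201 was 2.58, 2.47 and 9.06 FPKM in the calves and 5.31, 5.48 and 4.74 FPKM in the bulls. With antisense entries left out of every gene, the log2 fold change of CCDC134 went from 1.93 (adjusted p = 0.0105) to 0.31 (adjusted p = 0.591), and without calf 3 from 2.44 to 0.83, so that the call was lost in both fits.

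In CCDC146 and CCDC38 the antisense entries were those present in calves. CCDC146-AS1 was 0.916, 0.721 and 4.04 FPKM in the calves and 0.137 to 0.247 FPKM in the bulls, and it made up 97.6% of the level of CCDC146 in calf 3. With antisense entries left out, the log2 fold change of CCDC146 went from 2.28 to 3.47 and that of CCDC38 from 3.60 to 4.28. CCDC85A lost the call it had without calf 3, with a change of 0.96. In all, 74 CCDC genes were then called higher and 5 lower with all libraries (59.7% and 4.03%), against 35.3% and 10.1% of all genes tested. Without calf 3 these were 75 and 5 (60.5% and 4.03%), against 37.2% and 14.2%.

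The members lie on 30 chromosomes. Positions are those of the tables, and for 120 of the 129 members the symbol was found in the RefSeq annotation of the assembly ARS-UCD2.0, at an overlapping locus in all 120. There were 19 pairs of neighbouring members less than 1000 kb apart. On chromosome 29, CCDC81, CCDC83 and CCDC89 follow each other, and all 3 rose, with log2 fold changes of 4.31, 5.73 and 6.07. On chromosome 18, CCDC102A was called lower and CCDC113, 564 kb away, higher. On chromosome 22, CCDC36 rose and CCDC71, 22.3 kb away, was not called. Another entry of the table overlaps 65 of the members, and with no strand given their reads may be shared. CCDC28B overlaps IQCC, which was 5.79 FPKM on average in calves and 12.2 FPKM in bulls, opposite in direction to CCDC28B. CCDC113 overlaps PRSS54, which was 0.00468 FPKM in calves and 22.9 FPKM in bulls.

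Genes that once bore a CCDC name and are listed under another symbol were examined in the same fit. Of 29 such genes, all tested, 18 were called higher and none lower, with all libraries and without calf 3. The median log2 fold change was 1.99 with all libraries. The share of 62.1% higher stands beside 35.7% of all genes tested, or 37.9% without calf 3. The share of none lower stands beside 9.61% and 13.6%. At an unadjusted p below 0.05, limma gave 22 of the 29 higher and 2 lower, beside 7822 and 3223 of all 18115 genes tested. The largest rises were in BBOF1 (5.48), which holds ciliary basal bodies in orientation, and CFAP58 (5.02), a protein of the sperm tail. Among the genes not called, VPS50 (-0.96, adjusted p = 0.0346), WASHC3 (1.11, adjusted p = 0.0554) and COA3 (-0.72) act in vesicle traffic and in the assembly of cytochrome oxidase.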

How the data were processed

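Total RNA of the testes of 3 calves and 3 bulls was freed of ribosomal RNA, and each animal gave 1 library. Groups were taken from the sample titles. According to the methods, reads were mapped with TopHat2 to UMD3.1.1 and assembled with StringTie. For circular RNAs the methods name Cuffdiff and Ballgown. The tool that made the deposited FPKM values of genes and of transcripts is not given in the sources used here. The table of genes holds 1050 entries on scaffolds of the ARS-UCD assembly, so its positions were read as ARS-UCD. Counts were not used here and could not be recovered from the lowest values, where the commonest ratio between libraries covered at most 3.71% of genes. The number of reads behind a single value is therefore unknown, though the paper gives the number of reads per library.

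A gene was tested where 3 or more of the 6 libraries were at 1 FPKM or above. log2(FPKM + 1) was fitted with limma 3.58.1 in R 4.3.3, with an empirical Bayes trend and Benjamini-Hochberg adjustment over all genes, or all transcripts, tested. The procedure was tested on simulated data. Single values were compared by exact permutation (20 labelings). Figures were drawn with matplotlib 3.10.9.

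The CCDC genes, role lists, marker lists and tests were chosen with earlier results of these data known. Genes named by rule were the 10 largest rises and up to 10 largest falls among calls without overlap, the highest member of each role list, the 5 highest members in bulls and in calves, the 6 largest shifts among calls changed by calf 3, the 5 highest and 5 lowest in calf 3 against the other calves, the lettered relatives and the meiosis list. Further members were named to fill the role lists, after their values were seen. Alternatives were other pseudocounts, filters, scalings and weights, a replicate block and leaving out each library. Omission of antisense entries and the combinations of another scaling with the omission of calf 3 were added after the data were seen. Promoter and protein features were not analysed here. Groups sharing a replicate number share nothing else in the labels.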

Additional observations from a re-analysis of the deposited data

How the results depend on the processing

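No call of a CCDC gene changed direction under any alternative run. The number of CCDC genes called higher was 75 and ranged from 66 under quantile normalization to 78 under array weights. Of all 18115 genes tested, 6474, 4683 and 6867 were called higher in these fits. The number of CCDC genes called lower was 5, and it was 12 under quantile normalization with all libraries and also without calf 3. It was 9 with no fold change required, and 3 to 5 when 1 library was left out. Of all genes tested, 1741 were called lower in the main fit. This number was 3917 and 4964 under quantile normalization with and without calf 3, and 1218 to 2466 when 1 library was left out. With no fold change required, 6 more CCDC genes passed, beside 1948 more of all genes tested. The median log2 fold change of the CCDC genes, 1.81, became 2.14 and 1.98 with pseudocounts of 0.1 and 0.5. It was 1.25 under quantile normalization and 1.6 when libraries were scaled to genes with a symbol.

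By list, quantile normalization gave 2 lower of 14 centriole genes, and 0 higher and 3 lower of 7 trafficking genes. It gave 1 lower of 4 mitochondrial genes and 3 lower of 48 genes with no role. Among the other lists, 1 of 9 meiosis partners, 5 of 13 Commander genes and 3 of 29 genes of former CCDC name were lower. Of all genes tested, 25.9% were then higher and 21.6% lower. Of 191 transcripts tested, 13 were lower, and the share of all transcripts under this setting is not given here. Pseudocounts of 0.1 and 0.5 each gave 1 lower gene in the mitochondrial, Commander and former CCDC lists. Of all 18115 genes tested, 2207 and 2040 were then lower. Scaling to genes with a symbol gave 0 higher trafficking genes, 1 lower mitochondrial gene, 2 lower Commander genes and 1 lower former CCDC gene. Of all genes tested, 5824 were then higher and 2407 lower. Array weights gave 2 higher trafficking genes and 1 lower Commander gene, when 6867 of all genes tested were higher and 2470 lower. With no filter, 0 genes with no role were lower, against 3.54% of all 44657 genes then fitted. When each library was left out in turn, higher trafficking genes numbered 1 to 2 and lower signalling genes 1 to 2. The lower mitochondrial, no-role, Commander and former CCDC genes then numbered 0 to 1 each. Of all genes tested, 6034 to 6859 were higher and 1218 to 2466 lower in these fits.

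Among named genes, all of them not called with all libraries, the sign turned for CCDC107 (-0.43 under quantile normalization, -0.0906 when scaled, -0.39 with array weights, and -0.44 to 0.53 when 1 library was left out), CCDC69 (-0.29 under quantile normalization, -0.97 with array weights, and -1.1 to 1.42 when 1 library was left out), CCDC9 (-0.27 under quantile normalization, -0.0351 when scaled, -0.091 with array weights, and -0.11 to 0.43), CCDC47 (0.0476 with array weights, and -0.55 to 0.055), CCDC8 (-2.2 to 0.14), CCDC25 (-0.39 under quantile normalization) and CCDC71L (-0.33 under quantile normalization). The cause of these shifts was not tested.

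Replicate numbers are shared between calves and bulls, but same-numbered libraries deviated together by correlations of 0.0246 to 0.0341 only, so the numbers were not taken to pair animals. With the replicate block, 75 CCDC genes were higher and 4 lower, when 6437 of all 18115 genes tested were higher and 1691 lower. The no-role list held 0 lower genes because CCDC102A (adjusted p = 0.0572) lost its call. With 3 animals per group and no counts, small differences at low FPKM could not be resolved.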
